A study of Mus musculus with 60 samples.

Results

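Interferon-stimulated genes are switched on when a cell detects a virus or foreign nucleic acid, or receives interferon from a neighbour. The 46 genes described here are a named list of such genes, and each was found in all 3 count tables by the Ensembl identifier that belongs to its symbol. The list was chosen with earlier results of these data known, which limits what the counts of members called below can show. They were 46 of 23440 genes in the table of dome and suspension cultures, 46 of 23068 in the table of bulk passages and 46 of 28773 in the table of single organoids. Guanylate-binding proteins and genes of antigen presentation were not on the list.

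All samples were liver organoids grown from the intrahepatic bile ducts of C57BL/6N mice, aged 3 to 4 months per the labels. In the first experiment, 3 cultures kept in domes of undiluted Matrigel were compared with 3 cultures shaken in dilute Matrigel (suspension), each culture made from livers of several pooled animals. In the second, organoids of Sets 1, 3 and 4 were sequenced in bulk at passage 4 and at passage 11, with 2 technical replicates per sample. In the third, single organoids of Sets 1 to 4 were picked from suspension culture and sequenced 1 by 1, and of the 42 organoids the 35 that the study kept were used: 8 of Set 1, 10 of Set 2, 5 of Set 3 and 12 of Set 4. Set 1 was picked at passage 11, Sets 2 and 3 at passage 3 and Set 4 at passage 4. Per the methods each set came from the liver of 1 mouse, whereas the labels call the bulk passage samples organoid pools. In the single organoids source animal, passage and set cannot be told apart. None of the cultures was treated with interferon or infected, as far as the labels and methods say.

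Type I and type III interferons bind receptors that activate the kinases JAK1 and TYK2, which phosphorylate STAT proteins, among them STAT2. STAT2 and IRF9 are part of a complex that binds the interferon-stimulated response element (ISRE), whereas the gamma-activated site (GAS) is the element best known from the response to interferon gamma. Among the products of the induced genes are the sensors and transcription factors of the pathway itself, enzymes that attack viral RNA, the ubiquitin-like protein ISG15, and proteins that hold virions at the membrane. In the liver, cholangiocytes line the bile ducts and face microbial products from the gut.

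All 3 tables held bile duct cells by their markers, since all 10 ductal markers were counted in every group. Total counts per sample ranged from 1776490 to 14761853 in dome and suspension cultures, from 1486347 to 5532630 in the bulk passage samples after summing technical replicates, and from 1059002 to 11175868 in the kept organoids. Levels are CPM (a gene's counts relative to the scaled library total), set by edgeR's TMM factors within a table, and are not compared between genes. The tables were normalised separately.

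The 46 genes lie on 16 of the mouse chromosomes, with 8 on chromosome 11, 6 on chromosome 16 and 5 on chromosome 5, where 5 of the OAS family genes listed here lie. The 4 Ifit genes lie on chromosome 19. In the GENCODE M21 annotation of GRCm38, exons of 7 members overlap exons of another gene on the same strand (for example Irf9 with Rnf31 and Ifi47 with Olfr56) and those of 12 overlap a gene on the other strand, among them the neighbours Parp9 and Dtx3l. The sources do not state whether counting used strand, so reads of such pairs may be shared. Ifit3 and Ifit3b are near copies of each other, and how their reads were divided is uncertain. The same holds for Oas1a, which has close paralogs.

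Promoter sequence is shown for 7 members whose promoters hold a match to an element named above. These genes appear in the comparisons that follow, though not all were called in each. RefSeq promoter windows on GRCm38.p6, from 250 bases before to 50 bases after the start site, were given for 36 of the 46 members. The ISRE was searched as GAAANNGAAA and, for the other strand, TTTCNNTTTC, where N is any base and overlapping matches count separately. It was found in 13 of the 36 members, or in 13 of their 42 windows (31.0%), and in 1131 of all 32851 windows (3.44%). The GAS core TTCNNNGAA, which reads the same on both strands, was found in 8 members and in 8.30% of all windows. A match is a string of letters and not a measured binding site.

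The stretches end at the base before the start site and run 5′ to 3′ on the strand of the gene. They are Isg15 (chr4:156200819-156201018, minus strand), Ifit1 (chr19:34640689-34640870, plus), Ifit3 (chr19:34583329-34583528, plus), Ifit3b (chr19:34607757-34607956, plus), Rsad2 (chr12:26456453-26456652, minus), Bst2 (chr8:71537473-71537672, minus) and Irf1 (chr11:53769814-53770013, plus). That of Ifit1 leaves out the last 18 bases, which the annotation counts as exon. Capitals mark ISRE matches, in Bst2 overlapping ISRE matches and a GAS match, and in Irf1 a GAS match.
Isg15: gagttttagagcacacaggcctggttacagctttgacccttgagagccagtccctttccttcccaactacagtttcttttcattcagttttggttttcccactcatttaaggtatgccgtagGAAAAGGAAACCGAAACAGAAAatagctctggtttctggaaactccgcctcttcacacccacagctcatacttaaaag
Ifit1: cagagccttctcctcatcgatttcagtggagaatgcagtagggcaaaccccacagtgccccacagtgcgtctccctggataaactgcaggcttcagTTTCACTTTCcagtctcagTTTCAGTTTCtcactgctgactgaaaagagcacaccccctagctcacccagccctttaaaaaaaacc
Ifit3: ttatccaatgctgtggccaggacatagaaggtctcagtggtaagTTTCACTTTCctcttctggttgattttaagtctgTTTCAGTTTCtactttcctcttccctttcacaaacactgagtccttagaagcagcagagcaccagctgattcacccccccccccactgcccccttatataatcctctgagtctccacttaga
Ifit3b: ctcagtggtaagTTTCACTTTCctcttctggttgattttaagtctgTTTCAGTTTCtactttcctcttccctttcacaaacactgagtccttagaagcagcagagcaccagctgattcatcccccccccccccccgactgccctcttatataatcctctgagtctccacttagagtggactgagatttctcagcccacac
Rsad2: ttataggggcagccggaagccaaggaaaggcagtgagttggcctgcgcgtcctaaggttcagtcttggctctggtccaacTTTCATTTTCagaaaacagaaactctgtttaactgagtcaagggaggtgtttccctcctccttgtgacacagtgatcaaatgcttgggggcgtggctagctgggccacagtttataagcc
Bst2: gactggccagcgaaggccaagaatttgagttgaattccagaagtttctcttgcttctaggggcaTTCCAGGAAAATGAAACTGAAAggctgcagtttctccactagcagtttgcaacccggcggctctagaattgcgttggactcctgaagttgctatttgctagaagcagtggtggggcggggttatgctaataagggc
Irf1: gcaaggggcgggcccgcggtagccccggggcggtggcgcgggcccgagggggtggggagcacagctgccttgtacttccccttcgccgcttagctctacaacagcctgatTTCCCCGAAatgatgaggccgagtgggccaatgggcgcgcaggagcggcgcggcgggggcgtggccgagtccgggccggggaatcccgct
Isg15 holds 3 overlapping matches, which begin 78, 72 and 66 bases before its start. Those of Ifit1 begin 104 and 85 bases before its start, and those of Ifit3 156 and 122 bases before. Ifit3b carries the same pair 188 and 154 bases before its start, and over the 168 bases that the pair of stretches share at an offset, 138 (82.1%) are identical without gaps. Irf1 had no ISRE match in the window and a GAS match 90 bases before its start.

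Dome and suspension cultures were compared to learn how the culture form changes expression. Of the interferon-stimulated genes, 21 of 46 were called higher in domes, led by Oas3, Irf7 and Isg15. Of the 38 members that passed the filter on low counts, 21 were called higher and 0 lower (adjusted p under 0.05, edgeR), where 15% of all 12699 genes tested were called higher. The median log2 fold-change was 1.22 over the members and -0.04 over all genes, and 35 of 38 values were above 0. In 24 of the 38, all 3 domes lay above all 3 suspension cultures, against 21.6% of all genes. The 8 members below the filter were Zbp1, Ifit2, Ifit3b, Herc6, Mx1, Mx2, Ifi47 and Sp100.

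Irf7, the transcription factor that amplifies the interferon response, was at 50.6, 210 and 36.3 CPM in domes 1, 2 and 3. It was at 5.05, 4.73 and 5.10 CPM in suspension cultures 1, 2 and 3. The groups did not overlap, and the log2 fold-change was 4.27 ± 0.62 (SE, n = 3 per group, adjusted p = 0.00201, edgeR). Isg15, which encodes the ubiquitin-like modifier, was at 17.1, 70.4 and 13.2 CPM in domes and at 1.05, 1.66 and 2.07 CPM in suspension. Its log2 fold-change was 4.20 ± 0.65 (adjusted p = 0.00248), again without overlap. Oas3, which makes the short oligoadenylates that activate RNase L, was at 1.9, 14.7 and 2.2 CPM in domes and at 0.210, 0.473 and 0.138 CPM in suspension. It had the highest log2 fold-change of the members (4.32 ± 1.02, adjusted p = 0.0122), which rested on 54 counts in all. Without suspension culture 3 its adjusted p was 0.067.

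Dome culture 2 was the highest of the 6 cultures for 28 of the 38 members tested, where the like share of all genes was not counted. Its TMM factor was the lowest of the 6, at 0.724. It was also the culture with the highest level of the macrophage marker Cd68, at 90.2 CPM against 6.02 and 27.5 CPM in domes 1 and 3 and 2.74 to 8.04 CPM in suspension. The summed level of the 7 macrophage markers was 6.62 to 91.6 CPM in domes and 3.16 to 8.99 CPM in suspension. Cd68 made up nearly all of it in domes, and in suspension culture 3 Csf1r was at 3.24 CPM beside 3.44 CPM of Cd68. Clec4f, Marco and Fcgr1 were at 0 in all 6 cultures, and Adgre1 at 0 in 5 of them. Of 9 leukocyte markers 8 were at 0 in the domes, and the summed level of the list was at most 1.47 CPM in any culture. Mitochondrial transcripts took 1.64% to 2.02% of counts in domes and 3.72% to 4.02% in suspension. The summed level of the 4 proliferation markers was 71.1 to 150 CPM in domes and 304 to 372 CPM in suspension. The 10 ductal markers summed to 15900 to 31700 CPM in domes and 10500 to 11600 CPM in suspension, without overlap, and the 9 hepatocyte markers to 573 to 884 and 248 to 602 CPM. The part of these differences in the result was not tested, and in bulk samples fewer cells of a type and less RNA per cell cannot be told apart. Without dome 2, 20 members were called higher, of which 18 were among the 21. Without suspension culture 1 or 2, 14 were called, and without suspension culture 3, 13. In the last case the calls over all genes fell from 3779 to 1926.

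**Figure D1:**
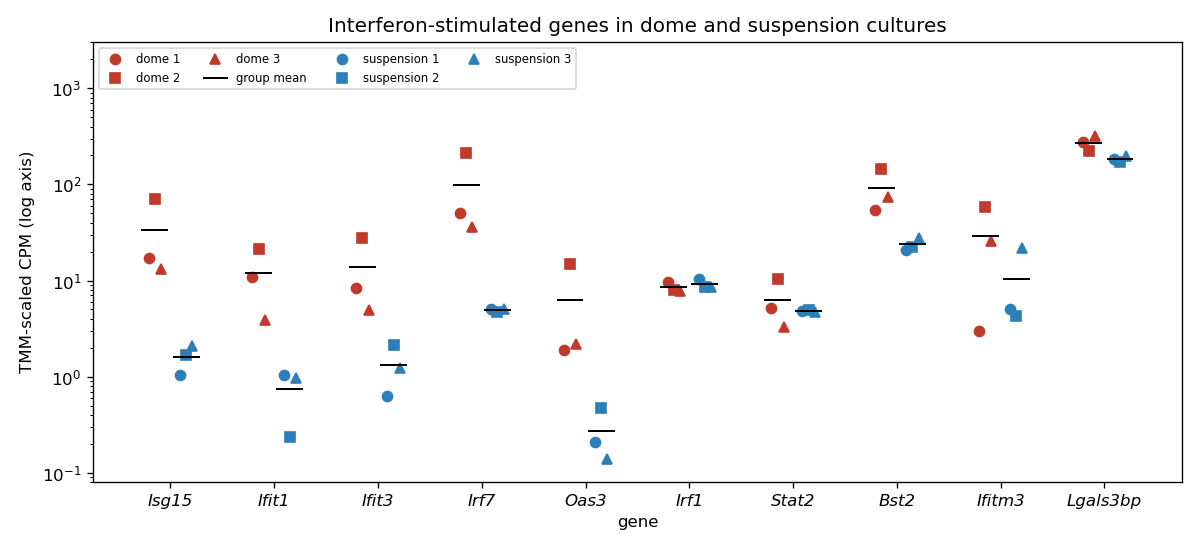
Level of 10 interferon-stimulated genes in 3 dome cultures (red) and 3 suspension cultures (blue), in TMM-scaled CPM on a log axis. Each point is 1 culture, the marker shape gives its number and the black line is the group mean. For Irf7 the domes lie between 36.3 and 210 CPM and the suspension cultures near 5 CPM, whereas Irf1 is at 7.70 to 10.3 CPM in all 6.

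The members are taken by role, and no test was made between roles. Of the 4 sensors, which recognise viral RNA or nucleic acid in the cytosol, 1 of the 3 tested was called higher. This was Dhx58 (2.41 ± 0.45, adjusted p = 0.00499), whereas Ddx58, which encodes RIG-I, had a log2 fold-change of -0.18 ± 0.37. Of the transcription factors, Irf7 and Irf9 were called higher. Irf9, the DNA-binding partner of STAT2, was at 16.5 to 48.4 CPM in domes and 5.44 to 8.95 CPM in suspension. Stat2 was at 5.18, 10.3 and 3.30 CPM in domes and at 4.84, 4.97 and 4.75 CPM in suspension, and the groups overlapped (0.26 ± 0.37, adjusted p = 0.626). Irf1, which responds mainly through GAS elements, was at 9.67, 8.06 and 7.70 CPM in domes and at 10.3, 8.51 and 8.54 CPM in suspension (-0.05 ± 0.25, adjusted p = 0.89).

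Both IFIT genes tested, whose products bind viral RNA ends, were called higher. Ifit1 was at 11.0, 21.3 and 3.85 CPM in domes and at 1.05, 0.236 and 0.964 CPM in suspension (3.78 ± 0.60, adjusted p = 0.00265). Ifit3 was at 8.38, 27.9 and 4.95 CPM in domes and at 0.631, 2.13 and 1.24 CPM in suspension (3.24 ± 0.64, adjusted p = 0.00595). Of the 7 RNA enzymes, Oas1a, Oas3, Oasl1 and Oasl2 were called. Oasl1, a relative of the oligoadenylate synthetases, had the smallest adjusted p among members (3.39 ± 0.40, adjusted p = 0.000978). Eif2ak2, the RNA-activated kinase PKR, and the RNA-editing enzyme gene Adar were not called (adjusted p values of 0.698 and 0.064). With the culture number as a block Adar passed the threshold (1.58 ± 0.42, adjusted p = 0.0138).

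In the ISG15 system, Isg15 itself, Usp18, which removes ISG15 and restrains the receptor, and the ligase gene Trim25 were called. Usp18 had a log2 fold-change of 3.14 ± 0.65, and Uba7, which encodes the activating enzyme, 0.65 ± 0.42 without a call. Of the PARP group (Parp9, Parp12, Parp14 and Dtx3l), Parp12 and Parp14 were called, with adjusted p values of 0.0331 and 0.0377. Parp12 was at 11.6, 20.5 and 17.6 CPM in domes and at 7.58, 8.51 and 9.02 CPM in suspension. With the culture number as a block, the adjusted p of Parp14 was 0.0866.

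Of the other antiviral effectors, Bst2 and Rsad2 were called. Bst2, also called tetherin, was at 54.3, 146 and 74.8 CPM in domes and at 21.0, 22.2 and 27.9 CPM in suspension (1.91 ± 0.34, adjusted p = 0.00423). Rsad2, which encodes viperin, had a log2 fold-change of 3.42 ± 1.10 (adjusted p = 0.0402) on 40 counts in all, and without dome 2 it was 1.97 with an adjusted p of 0.0745. It also missed the threshold without any of the suspension cultures and under limma-voom (adjusted p = 0.0797). Ifitm3, which blocks viral entry at endosomes, was at 2.97, 57.9 and 25.8 CPM in domes and at 5.05, 4.26 and 22.0 CPM in suspension, with overlap (1.19 ± 0.90, adjusted p = 0.338). Among the remaining members, Rtp4, Xaf1, Ifi44, Ifi27 and Ifi35 were called higher, between 1.11 and 3.11 on the log2 scale. Xaf1 missed the threshold under limma-voom (adjusted p = 0.0515) and without any suspension culture (0.0616 to 0.0638), and its log2 fold-change without dome 2 was 1.68. Ifi44 was at an adjusted p of 0.0683 with the culture number as a block, and also missed the threshold in each fit that left out dome 1, dome 2 or any suspension culture. Lgals3bp, which encodes a secreted glycoprotein, was at 274, 221 and 319 CPM in domes and at 185, 172 and 199 CPM in suspension. The groups did not overlap, but the difference missed the threshold (0.55 ± 0.20, adjusted p = 0.0597).

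**Figure D2:**
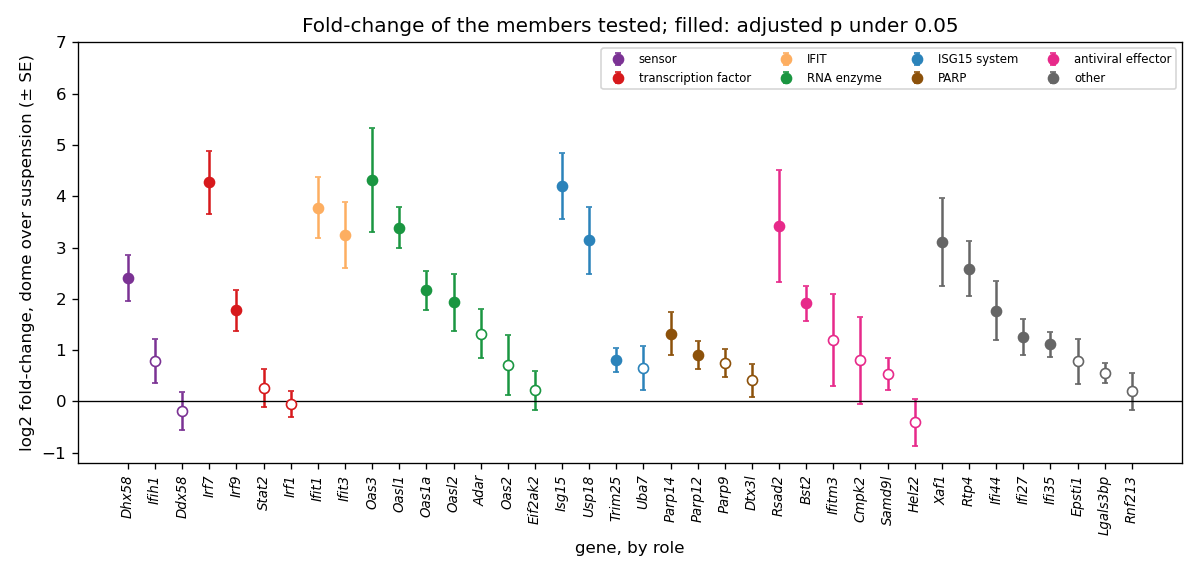
Log2 fold-change of dome over suspension for the 38 members tested, coloured by role and ordered within it. Bars are standard errors and filled points have an adjusted p under 0.05. The largest values are those of Oas3 (4.32), Irf7 (4.27) and Isg15 (4.20), and no point below 0 is filled.

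Of the rest of the interferon pathway, 6 of the 30 genes tested were called higher in domes and 0 lower, beside 15% of all genes called higher. Among them were Stat3 (0.89 ± 0.27), the receptor chains Ifngr2 (0.75 ± 0.19) and Il10rb (0.88 ± 0.17), the feedback inhibitor Socs3 (1.51 ± 0.41) and the phosphatase gene Ptpn6 (1.02 ± 0.28). None of the 12 sensing adaptors and kinases tested was called, with 0 higher and 0 lower. Of 19 interferon genes, 2 were in the table, with 3 counts in all over the 6 cultures, so that changes of the interferons themselves were not detectable at this depth.

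The passages were compared to see how prolonged culture changes the same sets of organoids. Interferon-stimulated genes were lower in the libraries labelled passage 11. The passage was taken from the labels, and the sources describe the direction of change between the passages in conflicting ways. The study's text puts interferon terms with genes higher at passage 11 and proliferation terms with genes lower there. A figure caption of the study gives the reverse, as do the values here under the labels. No value here checks the labels. With the labels exchanged, every direction below would turn. All 46 members were tested, 38 were called lower and 0 higher, where 10.1% of all 13738 genes were called lower. The median log2 fold-change was -1.78 over the members and -0.05 over all genes, and 45 of 46 values were below 0, Ifi27 being the exception (0.05 ± 0.41). In 39 of the 46, the 3 passage 11 samples all lay below the 3 passage 4 samples, against 20.3% of all genes. The 8 members not called were Irf1, Ifit1, Oasl1, Isg15, Usp18, Cmpk2, Rtp4 and Ifi27. When the set was entered as a block, 45 members were called lower, with Ifi27 again the exception.

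Rsad2 had the steepest fold-change. It was at 447, 105 and 144 CPM at passage 4 in Sets 1, 3 and 4 and at 46.2, 5.37 and 6.36 CPM at passage 11 (-3.48 ± 0.76, n = 3 per passage, adjusted p = 0.0116, edgeR). Zbp1, a sensor of left-handed nucleic acid that can trigger cell death, was at 30.1, 43.8 and 95.4 CPM and then at 10.5, 3.58 and 1.27 CPM (-3.27 ± 0.54, adjusted p = 0.00375). Ifi44 was at 79.3, 84.8 and 116 CPM and then at 20.2 and 6.96 CPM in Sets 1 and 3, with 0 counts in Set 4 (-3.14 ± 0.52, adjusted p = 0.0039). In Set 4 that was at least 60.6-fold lower, taking a floor of 3 counts in the library. Under DESeq2 the adjusted p of Ifi44 was 0.0591.

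The passage 11 sample of Set 4 was the lowest of the 6 for 34 of the 46 members, and the passage 4 sample of the same set was the highest for 37. The like shares of all genes were not counted. Irf7 was at 334, 260 and 437 CPM at passage 4 and at 94.7, 44.3 and 21.0 CPM at passage 11 (-2.63 ± 0.41, adjusted p = 0.00282). Bst2 went from 967, 588 and 810 CPM to 315, 238 and 134 CPM (-1.77 ± 0.28, adjusted p = 0.00327). For both genes every set was lower at passage 11 and the passages did not overlap. Stat2 went from 30.6, 39.5 and 51.7 CPM to 19.5, 10.3 and 7.00 CPM (-1.64 ± 0.31, adjusted p = 0.00624). Ifit3 went from 313, 300 and 670 CPM to 145, 15.9 and 17.2 CPM (-2.80 ± 0.72, adjusted p = 0.0219). Its call was lost in 4 of the 9 fits that left out a sample or a set (adjusted p between 0.056 and 0.0893). Its near copy Ifit3b gave -2.63 ± 0.69.

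Ifitm3 spanned a wide range between the sets at both passages. It was at 287, 930 and 2200 CPM at passage 4 and at 111, 250 and 350 CPM at passage 11 in Sets 1, 3 and 4, so the passages overlapped although each set was lower (-2.28 ± 0.61, adjusted p = 0.0267). The call was lost in 5 of the 9 fits that left out a sample or a set (adjusted p between 0.0521 and 0.106). Lgals3bp moved least among the called members, from 530, 638 and 802 CPM to 437, 434 and 287 CPM (-0.76 ± 0.20, adjusted p = 0.0251). Its call was lost in 6 of the 9 such fits (adjusted p between 0.0526 and 0.17), and without Set 4 the value was -0.43. Irf1 was at 36.3, 39.2 and 40.3 CPM and then at 34.6, 17.9 and 11.4 CPM, which was not called (-0.78 ± 0.29, adjusted p = 0.0818) but passed with the set as a block (-0.89 ± 0.27, adjusted p = 0.0371).

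Isg15, Ifit1 and Usp18, which missed the threshold, were at like levels at both passages in Set 1. Isg15 was at 110 CPM at passage 4 and 107 CPM at passage 11 in Set 1, whereas it went from 96.9 to 10.1 CPM in Set 3 and from 158 to 5.72 CPM in Set 4. Ifit1 was at 205 and 225 CPM in Set 1, at 230 and 19.3 CPM in Set 3 and at 320 and 10.8 CPM in Set 4. Usp18 was at 99.8 and 104 CPM in Set 1, at 139 and 20.3 CPM in Set 3 and at 212 and 12.1 CPM in Set 4. The log2 fold-changes over the 3 sets were -1.48 ± 0.72, -1.52 ± 0.79 and -1.66 ± 0.59, with adjusted p values of 0.178, 0.202 and 0.0717. With the set as a block they were -2.24 ± 0.62, -2.55 ± 0.72 and -2.06 ± 0.57, with adjusted p values of 0.0265, 0.0285 and 0.0259. Oasl1, Cmpk2 and Rtp4 likewise passed with the block (adjusted p values of 0.00485, 0.00468 and 0.0178).

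Set by set, which is a description with 1 culture per set and passage, the median log2 difference of passage 11 minus passage 4 over the 46 members was -0.88 in Set 1, -2.09 in Set 3 and -3.13 in Set 4. The medians of all genes tested lay between -0.04 and 0. Both technical replicates at passage 11 lay below both at passage 4 for 41 members in Set 1, for 45 in Set 3 and for 46 in Set 4. The share of all genes with such a split was not counted, so how unusual these counts are is not known. In Set 1, 21 members fell by more than 1 on the log2 scale, against 41 in Set 3 and 45 in Set 4. Among all genes, 17.4%, 10.9% and 13.7% did so. The IFIT group was furthest apart, with a median of -0.94 in Set 1, -3.89 in Set 3 and -5.05 in Set 4. In Set 1 the steepest member was Rsad2, which fell by 3.27 on the log2 scale. The difference between the sets was not tested.

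**Figure D3:**
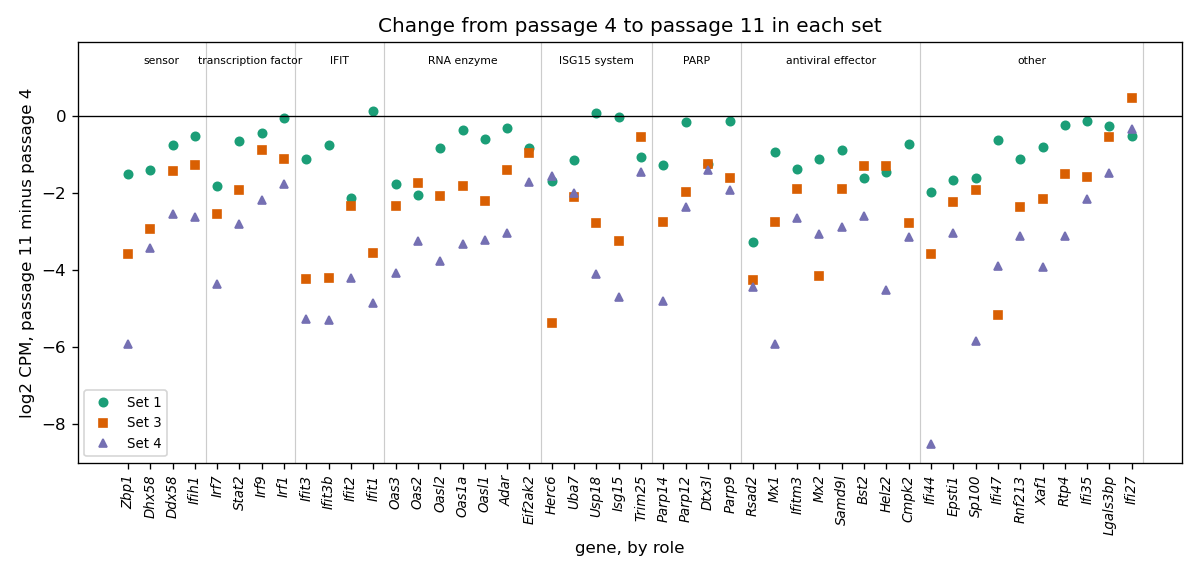
Log2 CPM at passage 11 minus passage 4 for the 46 members in Set 1 (circles), Set 3 (squares) and Set 4 (triangles), grouped by role. A value of 0 means no change. Set 1 lies closest to 0 for most members, with a median of -0.88 against -2.09 in Set 3 and -3.13 in Set 4, and points of genes with 0 counts at passage 11 depend on the offset of 0.5 counts.

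By role, all 4 sensors and all 4 genes of the PARP group were called lower. So were 3 of 4 transcription factors, 3 of 4 IFIT genes, 6 of 7 RNA enzymes, 3 of 5 genes of the ISG15 system, 7 of 8 other effectors and 8 of the remaining 10. The largest falls in the count of calls came without samples of Set 3 or Set 4. Without Set 4 at passage 4, 21 members were called lower, and without Set 3 at passage 11, 20. Calls over all genes, in either direction, fell from 2784 to 1788 and 1632 in these fits. Without Set 3 at both passages 13 members were called and without Set 4 at both passages 21. Without Set 1 at both passages 45 were called. Over all genes, leaving out Set 3, Set 4 or Set 1 gave 561, 1460 and 2198 calls, so calls also fell in general.

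The passage 11 samples had a lower share of mitochondrial counts than the passage 4 samples, 0.895% to 1.71% against 1.99% to 2.63%. Their summed proliferation markers were at 300 to 364 CPM against 128 to 138 CPM, and their hepatocyte markers at 756 to 1110 CPM against 293 to 702 CPM, neither with overlap. The macrophage markers summed to 5.95 to 20.5 CPM at passage 4 and 2.58 to 4.49 CPM at passage 11. Mpeg1, a marker of that list, was at 2.07, 1.54 and 2.82 CPM at passage 4 in Sets 1, 3 and 4. At passage 11 it was at 0 in each set. Cd68 was at 18.1, 4.41 and 5.10 CPM and then at 4.26, 2.39 and 4.45 CPM, with overlap. Adgre1, Clec4f, Marco and Fcgr1 were at 0 throughout. The 9 leukocyte markers summed to at most 0.518 CPM in any sample. The part of these differences in the result was not tested.

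Of the 31 other pathway genes tested, 7 were called lower at passage 11 and 0 higher, beside 10.1% of all genes called lower. Among them were the receptor chains Ifnar2 (-0.99 ± 0.23) and Ifngr1 (-0.55 ± 0.15), the kinase gene Jak2 (-1.17 ± 0.32), the endosomal RNA sensor gene Tlr3 (-1.64 ± 0.29), the kinase gene Ikbke (-1.32 ± 0.23) and the phosphatase gene Ptpn11 (-0.74 ± 0.18). Of the 19 interferon genes 4 were in the table, with 19 counts in all.

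The single organoids were sequenced to see how far organoids of a culture differ and how far the sets differ. Interferon-stimulated genes were higher in Set 2 than in each of the other sets, with between 25 and 44 of the 46 members called. Against Set 2, Set 1 had 44 of 46 members called lower and 0 higher (7.19% of all 13927 genes were called lower), with a median log2 fold-change of -2.26 against 0.01 over all genes. Set 2 against Set 4 gave 43 called higher (7.02% of all genes), with a median of 2.05, and Set 2 against Set 3 gave 25 (2.05%), with a median of 1.19. Set 1 against Set 3 gave 19 called lower (5.13%), and Set 3 against Set 4 gave 13 called higher (7.89%) and 1 lower, Ifitm3, whose call was lost without any 1 of the Set 3 organoids. Set 1 and Set 4 were the closest, with 5 members called lower in Set 1 (7.60%) and 1 higher. These 6 comparisons share sets and are not independent of each other, and each compares organoids of 1 set with those of another.

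The mean log2 CPM over the 46 members was 2.17 to 2.95 in Set 1, with a median of 2.36. It was 3.63 to 6.11 in Set 2 (median 4.27), 3.05 to 3.87 in Set 3 (median 3.35) and 2.37 to 3.20 in Set 4 (median 2.75). Set 2 overlapped only Set 3, and Set 1 lay below all of Set 3.

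Isg15 was at 2.20 to 7.53 CPM in the 8 organoids of Set 1, with a median of 4.27. It was at 19.9 to 186 CPM in Set 2 (median 29.9), at 11.3, 13, 13.7, 14.6 and 23.5 CPM in Set 3 and at 3.62 to 13.8 CPM in Set 4 (median 6.94). Sets 1, 2 and 3 did not overlap except at the ends of Sets 2 and 3, and Set 4 overlapped Sets 1 and 3. Set 1 differed from Set 2 by -3.55 ± 0.38 (adjusted p = 1.35e-08) and from Set 3 by -1.79 ± 0.44 (adjusted p = 0.00482), but not past the threshold from Set 4 (-0.80 ± 0.38, adjusted p = 0.171).

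Ifit1 differed most between Sets 1 and 2 (-4.92 ± 0.60, adjusted p = 1.62e-07). It was at 1.70 to 6.78 CPM in Set 1 (median 3.84), 10.7 to 412 CPM in Set 2 (median 42.9), 4.46 to 16.2 CPM in Set 3 (median 10.5) and 3.15 to 11.9 CPM in Set 4 (median 6.59). The other steep members were Sp100, a nuclear body protein gene, and Rsad2. Sp100 was at 0.284 to 2.26 CPM in Set 1 (median 0.929) and 0.866 to 89.2 CPM in Set 2 (median 9.31), with a log2 fold-change of -4.46 ± 0.59. Rsad2 was at 1.76 to 9.32 CPM in Set 1 (median 4.27) and 7.70 to 460 CPM in Set 2 (median 32.9), at -4.41 ± 0.61. Both overlapped at their ends, and Set 2 spanned a far wider range than the other sets.

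Against Set 3, the members of Set 1 that differed most were Epsti1, Ifi44 and Xaf1. Epsti1, first known as a gene induced in epithelium by stroma, was at 0 to 2.17 CPM in Set 1 (median 1.63) and at 12.6, 17.3, 19.4, 20.8 and 21.7 CPM in Set 3 (-3.42 ± 0.51, adjusted p = 8.63e-06). In Set 4 it was at 2.94 to 19.5 CPM (median 9.97), so that Set 1 lay below every organoid of Sets 3 and 4 (-2.58 ± 0.46 against Set 4, adjusted p = 0.000149). Ifi44 was at 0.660 to 5.27 CPM in Set 1 and 6.01 to 45.5 CPM in Set 3 (-2.95 ± 0.57). Xaf1, which encodes a partner of an apoptosis inhibitor, was at 2.56 to 5.27 CPM in Set 1 and 11.7 to 32.5 CPM in Set 3 (-2.24 ± 0.49). Neither overlapped.

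Between Set 1 and Set 4, Epsti1, Ifitm3, Oas1a, Irf9 and Bst2 were called lower in Set 1. The call of Bst2 was lost with all 42 organoids (-0.39, adjusted p = 0.166) and that of Oas1a after thinning to the smallest total (-0.81, adjusted p = 0.0716). Oas1a was at 2.27 to 12.4 CPM in Set 1 (median 6.28) and 7.42 to 16.7 CPM in Set 4 (median 12.3), with a log2 fold-change of -0.96 ± 0.20. Bst2 was at 53.2 to 83 CPM in Set 1 (median 65.5), 89.0 to 255 CPM in Set 2 (median 155), 92.2 to 155 CPM in Set 3 (median 143) and 56.4 to 159 CPM in Set 4 (median 100). Set 1 lay below every organoid of Sets 2 and 3. Irf7 was at 3.81 to 14.8 CPM in Set 1 (median 5.16), 15.7 to 41.4 CPM in Set 2 (median 22.7), 5.79 to 13.1 CPM in Set 3 (median 12.6) and 3.76 to 11.2 CPM in Set 4 (median 5.75). Here Set 2 lay above every organoid of the other sets.

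Some members did not share this order. Irf1 was at 6.82 to 17.6 CPM in Set 1 (median 12.2), 7.79 to 26.9 CPM in Set 2 (median 9.63), 8.48 to 11.6 CPM in Set 3 (median 10.1) and 5.13 to 11.4 CPM in Set 4 (median 7.93), and all 4 sets overlapped. It was the member called higher in Set 1 than in Set 4 (0.62 ± 0.21, adjusted p = 0.0447), a call that was lost without any of 4 of the Set 3 organoids (adjusted p between 0.0511 and 0.0546). Ifitm3 was at 98.6 to 337 CPM in Set 1 (median 150), 357 to 739 CPM in Set 2 (median 491), 221 to 294 CPM in Set 3 (median 236) and 118 to 2920 CPM in Set 4 (median 384). Set 4 alone spanned more than the other 3 sets together, and was higher than Set 1 (-1.81 ± 0.40 for Set 1 against Set 4, adjusted p = 0.00211). Lgals3bp was at 223 to 426 CPM in Set 1 (median 319), 286 to 700 CPM in Set 2 (median 369), 243 to 330 CPM in Set 3 (median 276) and 224 to 351 CPM in Set 4 (median 300), with overlap of all sets. It differed past the threshold between Sets 2 and 4 (0.51 ± 0.14, adjusted p = 0.0124).

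The remaining core genes followed Set 2. Ifit3 was at 2.27 to 6.82 CPM in Set 1 (median 4.27), 6.16 to 449 CPM in Set 2 (median 16.9), 4.24 to 6.86 CPM in Set 3 (median 5.79) and 2.97 to 8.55 CPM in Set 4 (median 6.00). Stat2 was at 9.31 to 18.1 CPM in Set 1 (median 15), 19.6 to 110 CPM in Set 2 (median 44.0), 17.8 to 56.3 CPM in Set 3 (median 25.8) and 8.34 to 21.8 CPM in Set 4 (median 12.5). For Stat2, Set 1 was lower than Set 3 (-1.10 ± 0.31, adjusted p = 0.0166), which without organoid 3 of Set 3 gave -0.73 with an adjusted p of 0.151. Ifit3 did not differ past the threshold among Sets 1, 3 and 4.

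**Figure D4:**
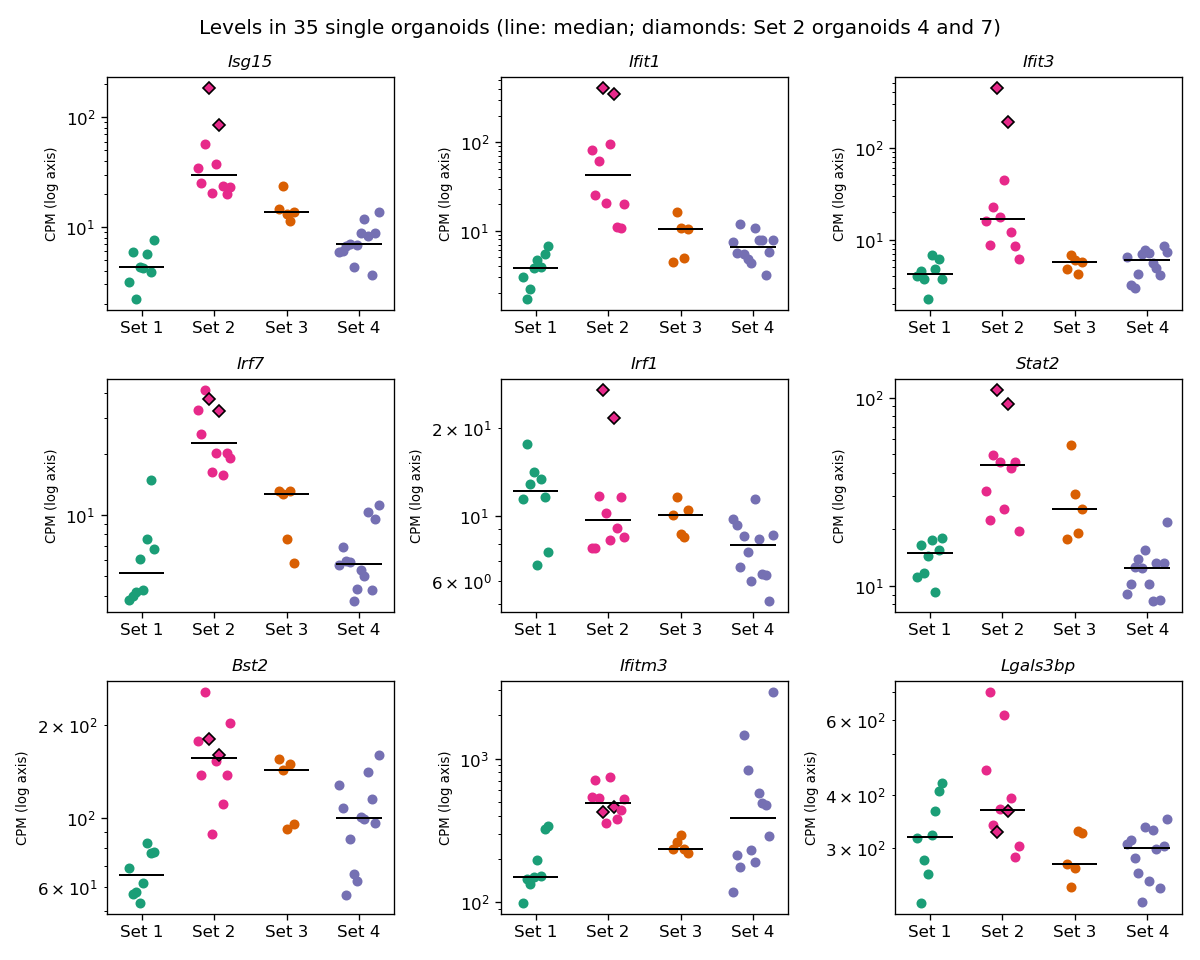
Level of 9 interferon-stimulated genes in the 35 kept single organoids by set, in TMM-scaled CPM on log axes that differ between panels. Each point is 1 organoid, lines are set medians, and diamonds mark organoids 4 and 7 of Set 2. Isg15 lies at 2.20 to 7.53 CPM in Set 1 and at 19.9 to 186 CPM in Set 2, whereas the sets overlap for Irf1 and Lgals3bp.

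Organoids of Set 2 also differed among themselves. Organoid 4 had a mean log2 CPM over the members of 6.11 and organoid 7 of 5.65, while the other 8 lay between 3.63 and 4.75. Isg15 was at 186 and 85.4 CPM in organoids 4 and 7, Ifit1 at 412 and 348 CPM and Ifit3 at 449 and 190 CPM. In the other 8, Isg15 was at 19.9 to 56.6 CPM and Ifit1 at 10.7 to 95.7 CPM. Of the 46 members, 31 had their highest level of all 35 organoids in organoid 4, and for 31 members organoids 4 and 7 were the 2 highest of Set 2. For 6 members neither was among the 2 highest. How many of all genes were highest in these organoids was not counted. Irf7 was at 37.4 and 32.6 CPM in these organoids and at 41.4 CPM in organoid 3, and Ifitm3 at 424 and 462 CPM, both below the set median of 491 CPM. Organoid 6 had the highest level of all 35 organoids for 5 members, among them Oasl1 at 421 CPM, against 123 CPM in organoid 4.

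Organoids 4 and 7 had 2929262 and 2335111 counts, within the range of Set 2 (1180937 to 4522826). Mitochondrial counts took 2.93% and 2.99%, within the set's 2.54% to 5.07%. Macrophage markers summed to 7.54 and 3.58 CPM, in a set that ranged from 1.38 to 7.54 CPM, and leukocyte markers to 0 and 1.59 CPM. The macrophage marker Mpeg1 was counted in organoids of Sets 2 and 3 and was at 0 in Sets 1 and 4. Organoid 4 had the highest proliferation sum of the 35 organoids, at 1410 CPM, and organoid 7 the lowest ductal sum of Set 2, at 6260 CPM. The part of these values in the result was not tested. Without organoids 4 and 7, 42 members were called lower in Set 1 than in Set 2 and 38 higher in Set 2 than in Set 4, with medians of -1.81 and 1.52. Against Set 3 the count fell to 16 and the median to 0.62. Calls over all genes, in either direction, fell from 1988 to 1860 for Set 1 against Set 2. They fell from 1722 to 1080 for Set 2 against Set 4 and rose from 548 to 717 for Set 2 against Set 3. Without organoid 3 of Set 3, 12 members were called lower in Set 1 than in Set 3, against 19 with it. Calls over all genes fell from 1314 to 1018 in that fit. Set 3 against Set 4 gave 3 members called higher without organoid 3 and 8 without organoid 6, against 13. There the calls over all genes fell from 1610 to 803 and 1024, so calls also fell in general.

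The spread within sets was measured over the 34 members with a mean log2 CPM of at least 2. That mean was taken over all 35 organoids, so a member could pass through high levels in Set 2 alone. The SD and correlations given here are therefore not independent of the limit, and no conclusion on Set 2 is drawn from them. The median SD of their log2 CPM was 0.474 in Set 1, 0.880 in Set 2, 0.489 in Set 3 and 0.464 in Set 4. Over the 10018 genes tested at that level it was 0.435, 0.459, 0.334 and 0.367. How far members varied together depended on the level of expression chosen. Among the 13 members with a mean log2 CPM of at least 4, the median pairwise Pearson r of set-centred log2 CPM over 35 organoids was 0.0689, beside -0.00241 for all genes at that level. Among the 34 members with a mean of at least 2 it was 0.380, beside -0.00188. Within Set 2 the latter was 0.594 over 10 organoids, and 0.284 over the 8 without organoids 4 and 7. In Sets 1, 3 and 4 it was 0.116, 0.264 and 0.256. These values are descriptions, since organoids of a set share a culture and values of a library share its depth.

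**Figure D5:**
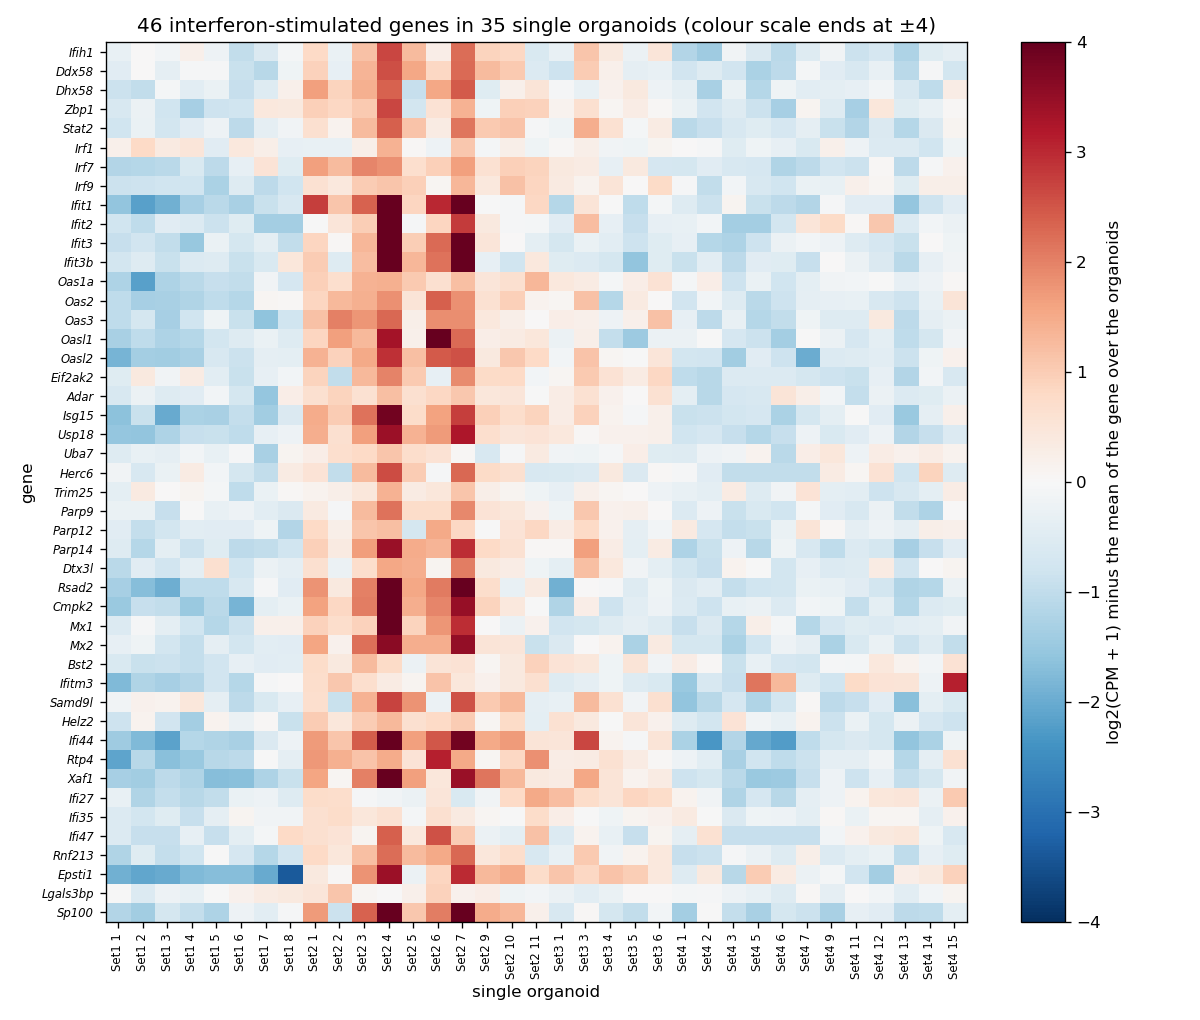
Levels of the 46 members (rows) in the 35 kept single organoids (columns, by set), as log2(CPM + 1) minus the mean of the gene over the organoids, with red above and blue below the mean. The colour scale ends at ±4. Organoids 4 and 7 of Set 2 are the reddest columns, with a mean log2 CPM over the members of 6.11 and 5.65, and Set 1 is blue for most rows.

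By role, the differences between Set 1 and Set 2 reached every group. All 4 sensors, all 4 IFIT genes, all 7 RNA enzymes, all 5 genes of the ISG15 system, all 4 genes of the PARP group and all 8 other effectors were called lower in Set 1, with 3 of the 4 transcription factors and 9 of the remaining 10. The IFIT group had a median log2 fold-change of -4.17 and the PARP group of -1.47. Between Set 1 and Set 3 none of the 4 IFIT genes and none of the 4 sensors was called, with 0 in each direction, but 5 of the 7 RNA enzymes were called lower. Of the 30 other pathway genes tested, 3 were called lower and 1 higher in Set 1 than in Set 2, beside 7.19% of all genes called lower. Interferon genes summed to 12 counts over the 35 organoids, with at most 2 counts of a gene in an organoid.

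The same sets can be set side by side in bulk and as single organoids, but no test was made between them. The tables were normalised separately, and bulk samples were made from total RNA and single organoids from mRNA. Single organoids came from suspension culture, whereas the culture form of the bulk passage samples is not given here. Isg15 and Ifit1 were both called higher in domes than in suspension, and the part of culture form in the values below was not tested. In Set 1 at passage 11, Isg15 was at 107 CPM in bulk and at 2.20 to 7.53 CPM in single organoids, and Ifit1 at 225 CPM and 1.70 to 6.78 CPM. In Set 4 at passage 4, Isg15 was at 158 CPM in bulk and at 3.62 to 13.8 CPM in single organoids. Among Sets 1, 3 and 4 in bulk, all at passage 11, Set 1 had the highest values of Isg15 and Ifit1. Among the single organoids it had the lowest set medians of both genes. There, however, Set 1 was at passage 11, Sets 2 and 3 at passage 3 and Set 4 at passage 4. The bulk order and the single-organoid order are therefore not like comparisons.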

How the data were processed

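Libraries were 3′-end RNA-seq with barcoded cDNA, from total RNA of bulk organoids or mRNA of single organoids. The authors deposited 3 tables of counts per Ensembl gene, not normalised. Per the submitters' processing notes and the study's methods, reads were mapped to mm10 (GRCm38) with STAR and counted with featureCounts through zUMIs, with SAMtools 1.9, and libraries were down-sampled depending on library size. The sources do not state whether the counts are of molecules or reads. All columns matched a labelled sample.

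From the deposited counts, technical replicates of the bulk passages were summed. Genes were filtered with filterByExpr (minimum count 3), scaled by TMM and tested with the quasi-likelihood F-test of edgeR 4.0.16 in R 4.3.3. P-values were adjusted by Benjamini-Hochberg over all genes, jointly over the 6 comparisons of sets, with 0.05 as threshold. SE is the absolute log2 fold-change divided by the square root of F. Log2 CPM adds 0.5 counts. Dome and suspension cultures came from pools of mice, each grown in both forms per the labels, but no label says which pool a number is.

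Same-numbered samples of both bulk experiments were taken as pairs only in the blocked fits, and for domes and suspension this pairing is assumed. In the passages a number is 1 set, which per the methods is 1 mouse (correlations of deviations 0.0980, 0.0283 and 0.0858), and in domes and suspension the 3 correlations were 0.133, 0.153 and 0.188. The main fits have no block, and blocked values are given where they change a call. Replicates differed by more than counting noise in every group (chi-square per degree of freedom at least 2.19), and technical replicates by 1.08 to 2.55.

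Alternatives were RLE size factors, a minimum count of 10, no filter beyond 1 count, limma-voom (limma 3.58.1), DESeq2 1.42.0, thinning to the smallest total, a replicate block, and leaving out samples. Scripts were tested on simulated data. The members, role groups, pathway list and markers were chosen with earlier results of these data known. Named genes are the members, and 1 further gene of the rule is not reported here. Values per sample are given for 9 genes chosen for their role and for the 3 called members with the largest change in each direction of 5 comparisons. Values of other pathway genes are given where they were called in either bulk comparison. Promoters are from RefSeq (GRCm38.p6) and gene positions from GENCODE M21, of the authors' build. Protein sequences were not used here.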

Additional observations from a re-analysis of the deposited data

Results flagged for a closer look

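In groups of 5 to 10 organoids, a sample was singled out where its gap to the nearest other, relative to the range of the group, passed Dixon's 95% value. Of 54 groups tested, 3 passed, and chance alone gives about 1 in 20. Rsad2 was low in organoid 1 of Set 3, at 0.95 log2 CPM with the next at 2.71. Ifi44 was high in organoid 3 of the same set, at 5.51 log2 CPM with the next at 3.28. Epsti1 was low in organoid 8 of Set 1, at -1.41 log2 CPM with the next at 0.64, which stands for 0 counts. Organoids 4 and 7 of Set 2 did not pass for any gene tested. As the gap runs to the nearest organoid, 2 high organoids can hide each other. The rule therefore cannot tell whether the pair stood apart. For Ifit1, organoid 4 was at 412 CPM, organoid 7 at 348 CPM and the next of Set 2 at 95.7 CPM.

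Directions of the passage change differed between sets for 2 members, in that both technical replicates moved one way in 1 set and the opposite way in another. For Ifit1 the log2 difference of passage 11 minus passage 4 was 0.13 in Set 1, -3.57 in Set 3 and -4.85 in Set 4. For Ifi27 it was -0.53 in Set 1, 0.46 in Set 3 and -0.34 in Set 4. These differences between sets were not tested.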

How the results depend on the processing

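No named gene changed direction in a call. Of the counts of members called, those that moved by over 1.5 times under a setting other than leaving out samples were Set 2 against Set 3 (25 to 16 with adjustment within each comparison, and 16 without organoids 4 and 7 of Set 2, chosen after seeing the data) and Set 3 against Set 4 (13 to 6 with the organoid number as a replicate block). Organoids of different sets share only a number, so that block pairs nothing. For Set 2 against Set 3, calls over all genes went from 548 to 180 with adjustment within each comparison and to 717 without organoids 4 and 7. For Set 3 against Set 4 they went from 1610 to 731 with the block. In the bulk experiments the replicate block gave 20 members higher in domes and 45 lower at passage 11. Blocking changed 3 calls among the members in domes and suspension (Adar, Ifi44 and Parp14) and 7 across passages, and no other.

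Leaving out 1 culture gave 13 to 21 members higher in domes. Leaving out 1 sample gave 20 to 44 members lower at passage 11, and with the fits that left out a set at both passages the range was 13 to 45. Leaving out each organoid of Set 3 gave 12 to 20 members lower in Set 1 than in Set 3, 18 to 27 higher in Set 2 than in Set 3 and 3 to 13 higher in Set 3 than in Set 4. Calls over all genes, in either direction, were 1018 to 1166, 369 to 488 and 803 to 1895 in these fits. With all 35 organoids they were 1314, 548 and 1610. The other 3 comparisons of sets hold no Set 3 organoid, so their counts of 44, 5 and 43 in these fits say nothing on stability, and organoids of the larger sets were not left out singly. The causes were not tested.

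The median passage change in Set 1 was -0.85 with RLE size factors, -0.94 with technical replicate 1 and -0.92 with technical replicate 2, against -0.88. The median r of members was 0.380 with a limit of 2 in place of 4 log2 CPM, a limit that a member could pass through Set 2 alone. Depth limited the low members: 8 of 46 fell below the filter in domes and suspension, and thinning to the smallest total left 35 tested and 16 called. The passage 11 sample of Set 4 had 1486347 counts, at which 3 counts correspond to 1.91 CPM.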

Other observations

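Of the 19 interferon genes, Ifna13 and Ifnz were counted in the dome and suspension table. Ifnb1, Ifnz, Ifnl2 and Ifnl3 were counted in the bulk passages, with at most 6 counts of a gene in a sample. In the single organoids these were Ifnb1, Ifnk and Ifnz, with at most 2 counts. None reached the filter in any table, so none was tested.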
